A study of Bos taurus with 14 samples.

Results

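The genes described here are amino acid transporters of the plasma membrane in whole bovine conceptuses on Day 15. They were taken by name as 10 genes, and each probe set whose single gene symbol in the platform annotation was one of the 10 was used. Of the 10 genes, 8 were measured, by 10 of 24016 probe sets: SLC1A1, SLC1A5, SLC3A2, SLC7A1, SLC7A5 and SLC6A6 by 1 each, and SLC1A4 and SLC38A2 by 2 each. No probe set of that kind carried the symbol SLC7A8 or SLC38A4, which were not analysed here. Where 1 value per gene is given, it comes from the probe set with the higher mean, and values are RMA log2 expression values unless a difference is named.

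Amino acid transporters carry nutrients that the conceptus draws from uterine fluid before the placenta attaches. Exchangers such as LAT1 and ASCT2 swap one amino acid for another, whereas sodium-coupled carriers such as SNAT2 pull amino acids into the cell against a gradient. Leucine, arginine and glutamine that enter the cell feed protein synthesis and are read by the mTORC1 kinase. Arginine is also a source of polyamines and nitric oxide.

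The conceptuses were Holstein, sired by 1 bull, collected as embryos on Day 6.5, graded by morphology, transferred to recipient heifers and flushed on Day 15, when the trophoblast elongates. There were 11 conceptuses from Grade 1 embryos, of which 5 were long, 5 were short and 1 had no length label, and 3 from Grade 3 embryos; no group received a treatment. Sex was male in 1 long, 2 short, 2 Grade 3 and the conceptus with no length label. For Grade 1 short replicate 1, one label says long and another short, and it was counted as short, which gives the group sizes of the design text.

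Each sample was 1 whole conceptus on 1 array, so embryo, trophoblast and hypoblast RNA were measured together. In such bulk samples, fewer cells of a type and less RNA per cell cannot be told apart. Of 7 measured trophectoderm markers, KRT18 (14.40 to 14.54), IFNT2 (14.37 to 14.61), TKDP1, KRT19 and TFAP2A had means of at least 10.66, while ELF5 averaged 6.64 and KRT8 6.16, with a lowest KRT8 value of 5.33. List means were 3.97 to 4.37 for endometrial epithelium (8 of 8 genes measured), in which MUC1 reached 7.61, and 4.11 to 4.25 for erythroid cells (6 of 7). Array medians lay between 5.62 and 5.72.

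The first comparison asked whether long and short conceptuses of the same embryo grade differed in these carriers. None of the 8 measured transporters passed the test between 5 long and 5 short conceptuses. The lower averages in long conceptuses that came closest were those of SLC7A5, the leucine exchanger LAT1, and SLC1A5, the glutamine exchanger ASCT2, by log2 differences of -0.26 ± 0.091 and -0.22 ± 0.095 (SE), with adjusted p = 0.114 and 0.199 in limma. SLC6A6, which carries taurine, differed by -0.25 ± 0.16, and the other 5 genes by between -0.067 and 0.11. Across all probe sets the same test called 6.57% (1577 of 24016; 2.7% higher and 3.87% lower in long conceptuses), and among named genes 9.5% (870 of 9155; 3.27% higher and 6.24% lower). The groups of 0 of the 8 transporters were free of overlap, against 8.42% of probe sets and 12.6% of named genes. At an unadjusted p under 0.05, 2 of the 8 stood out, where 22% of all probe sets did.

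**Figure D1:**
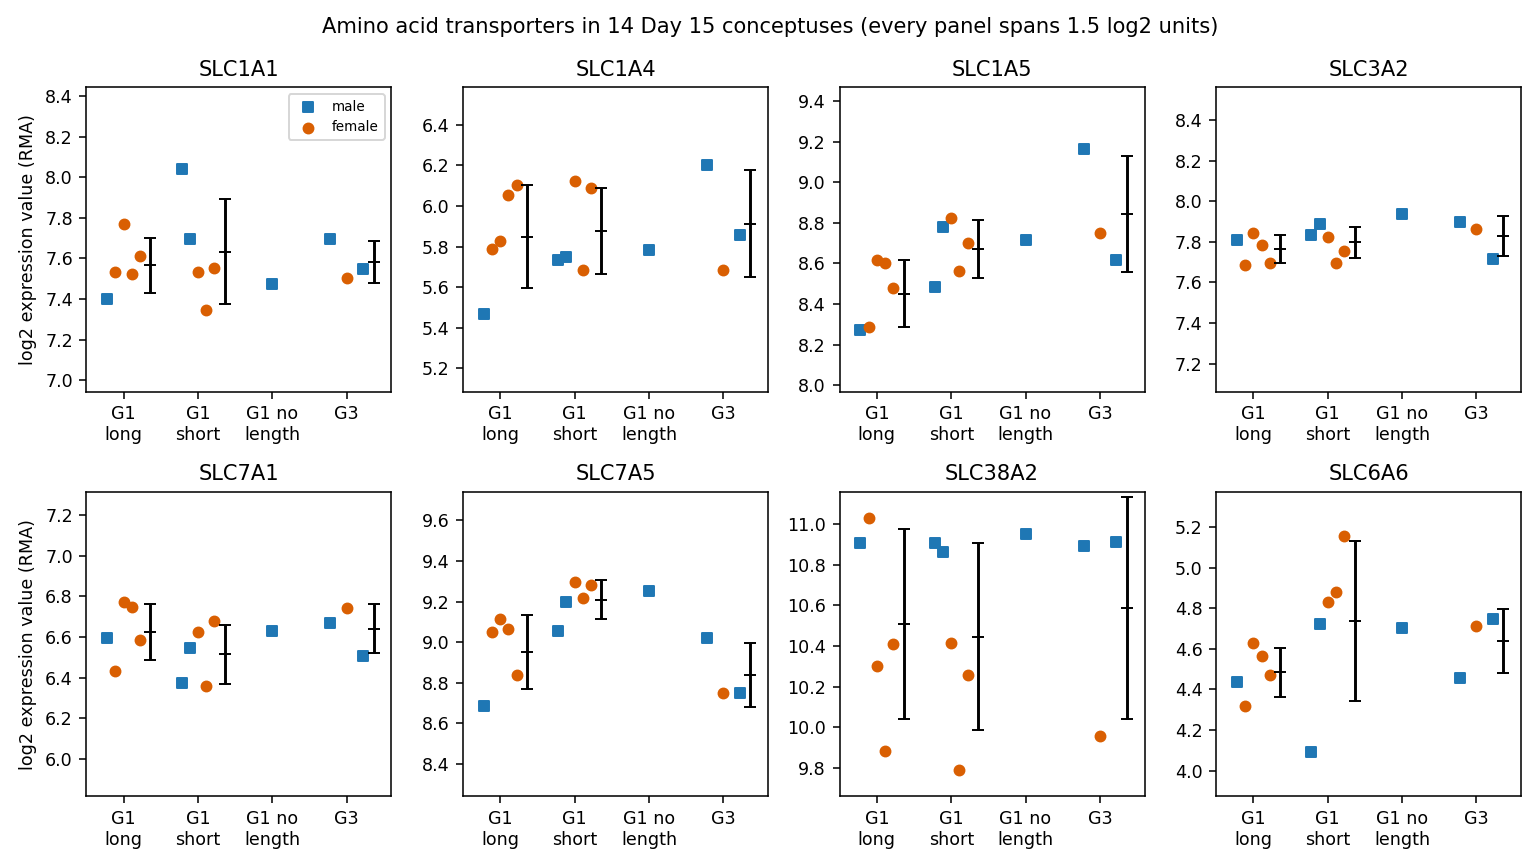
Log2 expression values (y axis) of the 8 measured transporters in each of 14 conceptuses, by group (x axis); squares are males, circles females, and black bars show the mean ± SD of a group. Every panel spans the same 1.5 log2 units, so that the wide scatter of SLC38A2 (9.79 to 11.03) can be set against the narrow one of SLC3A2 (7.69 to 7.94).

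SLC7A5 and SLC3A2 form one exchanger of the plasma membrane, in which the SLC7A5 protein moves leucine and other large neutral amino acids and the glycoprotein SLC3A2, known as the CD98 heavy chain, carries it to the cell surface. SLC7A5 measured 8.68, 9.05, 9.11, 9.07 and 8.84 in long replicates 1 to 5, and 9.05, 9.20, 9.30, 9.22 and 9.28 in short replicates 1 to 5. Short replicate 1, the conceptus whose labels disagree, lay below 2 of the long ones, and the other 4 short ones lay above every long one. The group means were 8.95 ± 0.18 and 9.21 ± 0.10 (SD, n = 5), a 1.20 fold lower average in long conceptuses, with a 95% interval of the log2 difference from -0.46 to -0.062. An exact two-sided permutation test over the samples gave p = 0.0238 for this gene alone, with no adjustment for the 10 probe sets so tested; the smallest p that 5 against 5 allows is 0.00794.

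The SLC7A5 difference passed the threshold when sex was a covariate (-0.30, adjusted p = 0.03 in limma), a fit that called 10% of all probe sets. In the other 8 settings and the 10 fits with 1 conceptus left out, which share 1 fit, it did not pass. Adjusted p lay between 0.0787 and 0.408 in limma, and each of these fits kept the direction of SLC7A5. SLC3A2, its partner, hardly varied: 7.69 to 7.84 in long and 7.69 to 7.89 in short conceptuses, a log2 difference of -0.035 with a 95% interval from -0.17 to 0.10.

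SLC1A5 exchanges glutamine and other small neutral amino acids. It measured 8.27, 8.29, 8.61, 8.60 and 8.48 in long replicates 1 to 5, and 8.48, 8.78, 8.83, 8.56 and 8.70 in short replicates 1 to 5. The 2 ranges met in the middle, with short replicates 1 and 4 inside the upper part of the long range and the other 3 short conceptuses above it. The means were 8.45 ± 0.17 and 8.67 ± 0.14 (SD, n = 5), and the 95% interval of the log2 difference ran from -0.43 to -0.013. The exact permutation test gave p = 0.0714.

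SLC6A6, the taurine carrier, had a mean of 4.62 over the 14 arrays, below the median of every array. Its values in short replicates 1 to 5 were 4.09, 4.72, 4.83, 4.88 and 5.15, and in long replicates 1 to 5 they were 4.44, 4.32, 4.63, 4.56 and 4.47. Short replicate 1, again the conceptus whose labels disagree, was the lowest of all 14, while the other 4 short conceptuses lay above all 5 long ones. With it counted as short, the difference was -0.25 ± 0.16 (SE, adjusted p = 0.4 in limma). Left out, the difference was -0.41 ± 0.097 with adjusted p = 0.0333, in a fit that called 7.07% of all probe sets; its groups then did not overlap, which held for 12% of all probe sets. Counted as long, it was -0.48 ± 0.11 with adjusted p = 0.0523. Without short replicate 5, the highest at 5.15, the difference was -0.15 with adjusted p = 0.653.

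The remaining members showed group ranges that overlapped widely. SLC7A1, the arginine and lysine carrier CAT1, averaged 6.63 ± 0.14 in long and 6.52 ± 0.15 among short ones (SD), a log2 difference of 0.11 with a 95% interval from -0.082 to 0.31. SLC1A1, the glutamate and aspartate carrier EAAT3, averaged 7.57 ± 0.14 and 7.63 ± 0.26, with an interval from -0.33 to 0.19. Its direction turned when the conceptus with disagreeing labels, the highest of all 14 at 8.04, was counted as long (0.11) or left out (0.034).

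SLC1A4, the alanine and serine exchanger ASCT1, was read by 2 probe sets, and neither differed beyond its spread between long and short conceptuses. The brighter averaged 5.85 ± 0.25 in long and 5.88 ± 0.21 in short conceptuses, with long replicate 1 the lowest of the 14 at 5.47. The dimmer averaged 5.17 ± 0.042 and 5.13 ± 0.069 (SD, n = 5). Their log2 differences were of opposite sign, -0.026 and 0.034, and the 95% interval of the dimmer ran from -0.090 to 0.16.

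**Figure D2:**
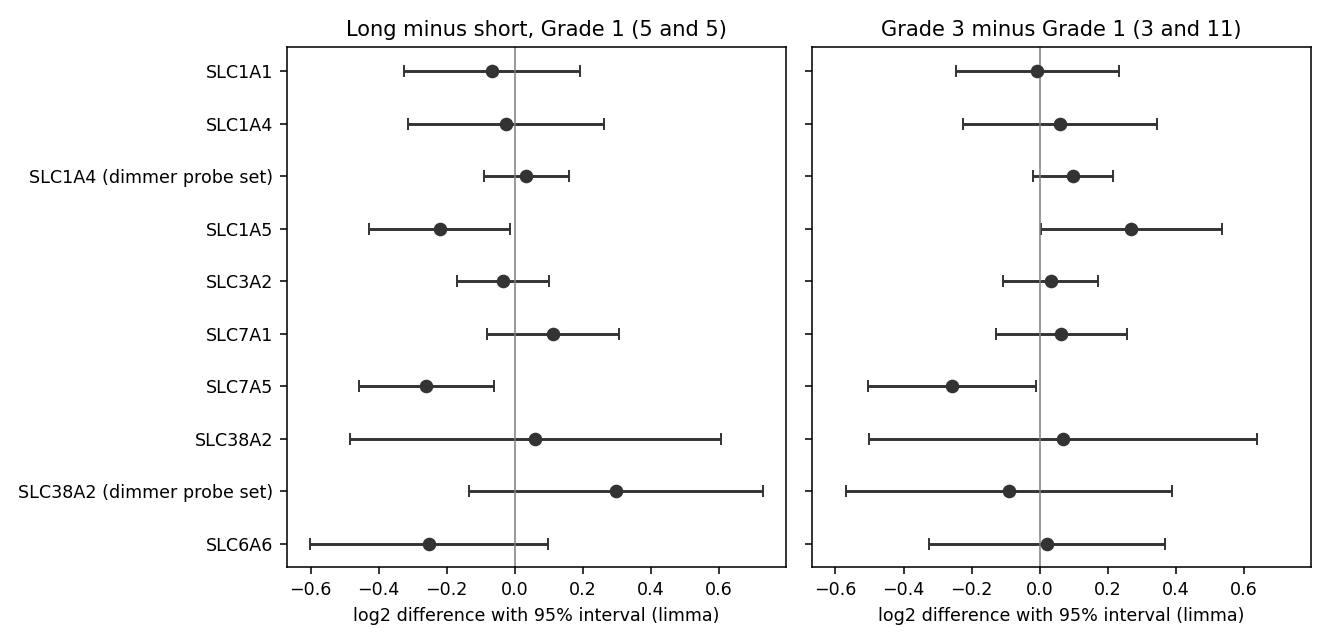
Log2 differences (x axis) with 95% intervals from limma for the 10 transporter probe sets (y axis), long minus short Grade 1 conceptuses on the left (5 and 5) and Grade 3 minus Grade 1 on the right (3 and 11). The intervals of SLC7A5 and SLC1A5 lie to one side of 0 before adjustment in both panels, SLC7A5 below 0 in both and SLC1A5 below 0 for length and above 0 for grade.

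Samples carry 7 title prefixes whose meaning the labels do not give, and 2 of these hold both lengths. Within the prefix with 2 long and 1 short conceptus, the long minus short log2 difference was -0.33 for SLC7A5, -0.50 for SLC1A5 and -0.35 for SLC6A6. Within the prefix with 1 long and 2 short conceptuses, it was -0.14, -0.080 and -0.23. The 3 genes thus kept their direction inside both prefixes, each time with 3 conceptuses and no test. So did the brighter SLC1A4 probe set (-0.12 and -0.075) and, upwards, SLC38A2 in its brighter (0.11 and 0.20) and dimmer (0.55 and 0.18) probe sets. A kept direction was therefore not particular to the 3 genes. SLC7A1, SLC3A2, SLC1A1 and the dimmer SLC1A4 probe set had opposite signs in the 2 prefixes.

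The second comparison asked whether conceptuses of Grade 3 embryos differed from those of Grade 1. Of the 7 title prefixes, 0 held both grades, so grade and prefix cannot be told apart here. None of the 8 transporters passed, and no probe set did (0% of 24016 at an adjusted p under 0.05 in limma, and 5.06% at an unadjusted p under 0.05, as 2 of the 8 transporters had). The 2 grades were free of overlap for 0 of the 8, against 0.554% of probe sets and 0.437% of named genes. SLC7A5 averaged 8.84 ± 0.16 in Grade 3 (SD, n = 3) and 9.10 ± 0.19 in Grade 1 (n = 11), a log2 difference of -0.26 ± 0.12 (SE, adjusted p = 0.981 in limma). SLC1A5 averaged 8.84 ± 0.28 and 8.57 ± 0.18, a difference of 0.27 ± 0.13 with the same adjusted p; without Grade 3 replicate 1, at 9.16, it was 0.11. The other 6 differed by between -0.0074 and 0.068. The dimmer probe sets stood at 0.098 for SLC1A4 (adjusted p = 0.999 in limma) and -0.090 for SLC38A2. Exact permutation tests for grade, unadjusted, gave p = 0.0192 for the dimmer SLC1A4 probe set, 0.0549 for SLC7A5 and 0.0742 for SLC1A5.

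Set against each length group, the 3 Grade 3 conceptuses sat at different places for these 2 exchangers. Their SLC7A5 values of 9.02, 8.75 and 8.75 were below all 5 short conceptuses and inside the range of the long ones. Grade 3 replicates 2 and 3 had exactly the same deposited SLC7A5 value, 8.74761, and the same title prefix. The difference from short was -0.37 ± 0.11 (SE, adjusted p = 0.288 in limma) and that from long -0.11 ± 0.11, which ranged from -0.20 to -0.067 with 1 conceptus left out. For SLC1A5 the Grade 3 values of 9.16, 8.75 and 8.62 lay above all 5 long conceptuses, by 0.39 ± 0.13 on average (adjusted p = 0.399), and differed from the short ones by 0.17 ± 0.13. Without Grade 3 replicate 1 these differences were 0.23 and 0.013. Grade 3 and short conceptuses did not overlap in 1 of the 8 transporters, 6.08% of all probe sets and 7.39% of named genes, and Grade 3 and long ones in 1 of the 8, 7.14% and 8.77%. These comparisons share the Grade 3 samples; neither called a probe set in limma, and 10.6% and 9.06% of probe sets had an unadjusted p under 0.05.

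From high to low, the group means of SLC7A5 thus ran short, long, Grade 3, and those of SLC1A5 ran Grade 3, short, long. The gap between short and long was larger than the SD of either group for both genes. The gaps between long and Grade 3 for SLC7A5 (0.11) and between Grade 3 and short for SLC1A5 (0.17) were smaller than the larger SD of the 2 groups. The conceptus with no length label had 9.25 for SLC7A5 and 8.71 for SLC1A5, inside the short range for both.

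SLC38A2 encodes SNAT2, the sodium-coupled carrier of small neutral amino acids whose mRNA is known to rise when amino acids are scarce. It varied most among the transporters: its SD over the 14 arrays was 0.44, the highest of the 8, and its values spanned 1.24 log2 units. Neither length nor grade ordered them. Long replicates 1 to 5 measured 10.91, 11.03, 10.30, 9.88 and 10.41, short replicates 1 to 5 measured 10.91, 10.86, 10.42, 9.79 and 10.26, and Grade 3 replicates 1 to 3 measured 10.89, 9.96 and 10.91. Each group thus held values near 10.9 and values far below, and the long minus short difference was 0.06 ± 0.25 (SE, adjusted p = 0.926 in limma).

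The scatter of SLC38A2 followed the sex labels more closely than the groups, but title prefix moves with sex, as given below. Sex was examined after these values were seen. All 6 males lay between 10.86 and 10.95. Of the 8 females, 7 lay between 9.79 and 10.42, and 1, long replicate 2, had the highest value of all at 11.03. Males averaged 10.91 ± 0.030 (SD, n = 6) and females 10.26 ± 0.40 (n = 8), a log2 difference of 0.68 ± 0.16 (SE) with grade as a covariate. That difference did not pass over all probe sets (adjusted p = 0.109 in limma, where 0.362% of probe sets passed). It passed without long replicate 2 (0.78, adjusted p = 0.00404 in limma, with 0.525% of probe sets called). Because that conceptus was the female that ran against the split, this fit is not separate evidence on sex. The difference did not pass with any other single conceptus left out (0.61 to 0.70).

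The second probe set of SLC38A2 was far dimmer and went the same way. It lay between 4.04 and 4.88 in males and from 3.48 to 4.6 in females, and long replicate 2 was again the highest female. The difference was 0.43 ± 0.16 (SE, adjusted p = 0.503 in limma). Title prefix moves with sex. The 4 conceptuses of 1 prefix, 3 males and long replicate 2, were all high. The only other prefix with both sexes held a Grade 3 male at 10.91 and a Grade 3 female at 9.96. Each remaining prefix held 1 sex, so sex and prefix cannot be fully told apart here. Without the prefix of 4 the sex difference was 0.83 (adjusted p = 0.247), and with prefix as a random block it was 0.65 (adjusted p = 0.181). Among the other 7 transporters the sex difference lay between -0.18 and 0.10, and none passed.

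**Figure D3:**
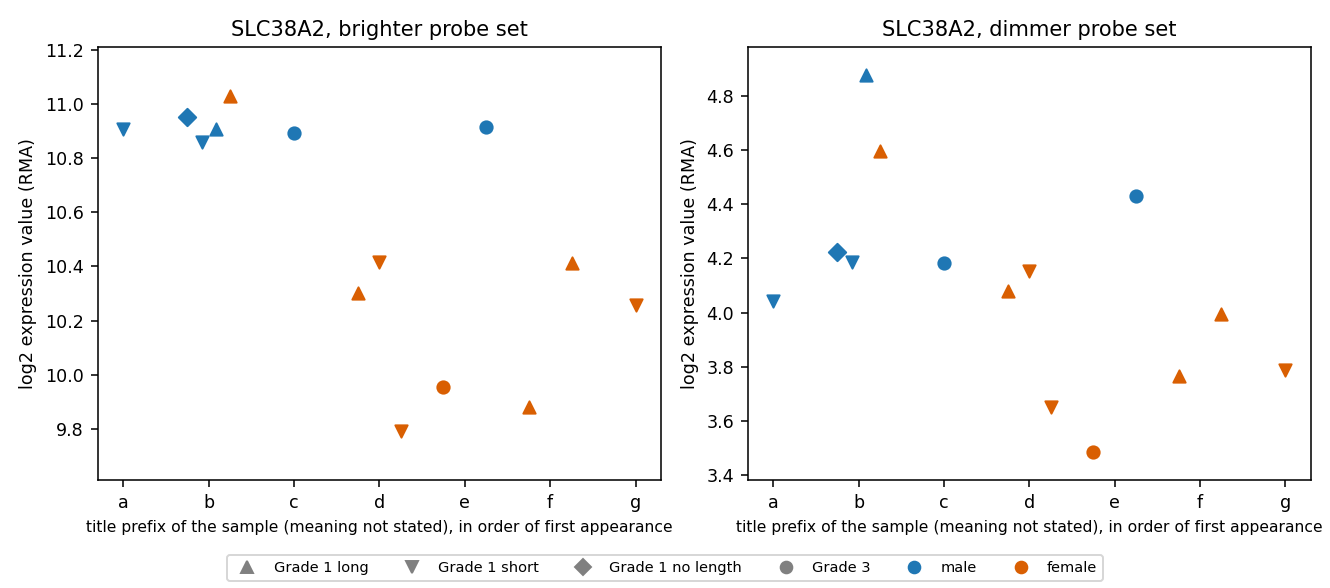
Log2 expression values (y axis) of the 2 SLC38A2 probe sets in the 14 conceptuses, arranged by the title prefix of the sample (x axis, 7 prefixes lettered in order of appearance); colour gives sex and the marker shape gives the group. In the brighter probe set the 6 males and 1 female sit between 10.86 and 11.03 and the other 7 females between 9.79 and 10.42.

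The genes whose values most resembled those of SLC38A2 over the 14 arrays were EFNA1, a membrane-bound ephrin ligand, PLK2, a polo-like kinase, and ZFP36L2, which promotes decay of mRNAs, with Pearson r = 0.88, 0.85 and 0.84 among 1584 named genes with an SD of at least 0.25. Their sex differences were 0.91, 1.13 and 0.40, and none passed (adjusted p = 0.242, 0.0969 and 0.137 in limma). Because these genes were picked by likeness to SLC38A2 on the same arrays, these differences are not separate evidence on sex. SLC6A6 was most like PAM, an enzyme that amidates peptides (r = 0.90), FAHD2A (0.89) and RPS6KL1 (0.86). SLC1A5 had looser matches in MPDZ (0.76), TEX12 (0.73) and CCND2 (0.73). These are descriptions over arrays that share groups and prefixes.

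Other genes of amino acid transport, sensing and use were then set beside the transporters for length. Of 34 further amino acid transporters, 15 were measured and 0 passed in either direction, with a median difference of -0.042 against -0.035 over all named genes and -0.051 over the 8 measured members. SLC38A11 stood at -1.32 ± 0.38 (SE, adjusted p = 0.0613 in limma), SLC7A9 at 0.50 and the lysosomal cystine carrier CTNS at -0.42. In the 4 lists that follow, called genes are to be read against the 9.5% of named genes called for length (3.27% higher, 6.24% lower); the lists were not tested against that share.

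Of 25 measured genes of amino acid sensing and mTORC1, 1 rose and 3 fell (median -0.11), where 9.5% of named genes were called. SESN1, a stress-induced protein that restrains mTORC1, rose by 0.87 ± 0.15 in 1 of its 3 probe sets, and 1 of the others had the opposite sign. The Ragulator subunit LAMTOR5 fell by 0.32, and EIF4EBP1, the translation repressor that mTORC1 phosphorylates, by 0.40. The GATOR2 subunit WDR24 fell by 0.34 in 1 of its 2 probe sets and stood at 0.0064 in the other. LAMTOR1 (-0.27), RRAGA (-0.14) and RPS6KB1 (0.21) followed without passing.

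The ATF4 response is the programme that amino acid shortage switches on, and it includes serine and folate enzymes. Of its 20 measured genes, 0 rose and 3 fell (median -0.18), where 6.24% of named genes were called lower. Called or not, 9 of the 20 averaged higher in long conceptuses, as 41.2% of named genes did. SHMT2, the mitochondrial serine hydroxymethyltransferase, fell by 0.75 ± 0.097 (SE, adjusted p = 0.00788 in limma), PSAT1, of serine synthesis, by 0.94 ± 0.18, and MTHFD2, of mitochondrial folate metabolism, by 0.96 ± 0.24. All 4 MTHFD2 probe sets were lower and 3 passed. All 3 PSAT1 probe sets were lower and 2 passed, and the smallest of their differences was -0.087. NUPR1 (-0.22), EIF2S1 (-0.22) and PYCR1 (0.24) did not pass.

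Of 19 measured genes of arginine and polyamine metabolism, 1 rose and 0 fell (median 0.048), a smaller share than the 9.5% of named genes called. GATM, which transfers the amidino group of arginine to glycine on the way to creatine, rose by 1.74 ± 0.26 (SE, adjusted p = 0.00902 in limma), while the arginine carrier SLC7A1 differed by 0.11. ODC1, the first enzyme of polyamine synthesis, stood at -0.30 (adjusted p = 0.0573), and the arginine-making ASL at 0.86 (0.0691) and nitric oxide synthase NOS2 at 1.86 (0.0761) in their brightest probe sets. The other ASL probe set stood at 0.022, and the lowest difference among the 4 NOS2 probe sets was -0.013.

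Of 12 measured genes of glutamine, glutamate, taurine and branched-chain metabolism, 2 rose and 2 fell (median 0.057), where 9.5% of named genes were called. The branched-chain aminotransferase BCAT2 rose by 0.81 ± 0.13 in 1 of its 2 probe sets and stood at -0.034 in the other. The aspartate aminotransferase GOT2 rose by 0.35 ± 0.064 in its brighter probe set and 0.37 in the other, which also passed. Glutamine synthetase, GLUL, fell by 0.30 ± 0.071, and GCLC, of glutathione synthesis, by 0.35 ± 0.085. GOT1 (-0.25), CDO1 (0.52, and 0.026 in its other probe set) and GCLM (0.19) did not pass. For grade none of these 5 lists had a called gene; the smallest p in each belonged to SLC38A7 (-0.15), RRAGC (0.16), ATF5 (-0.31), ARG1 (0.21) and CDO1 (0.54).

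**Figure D4:**
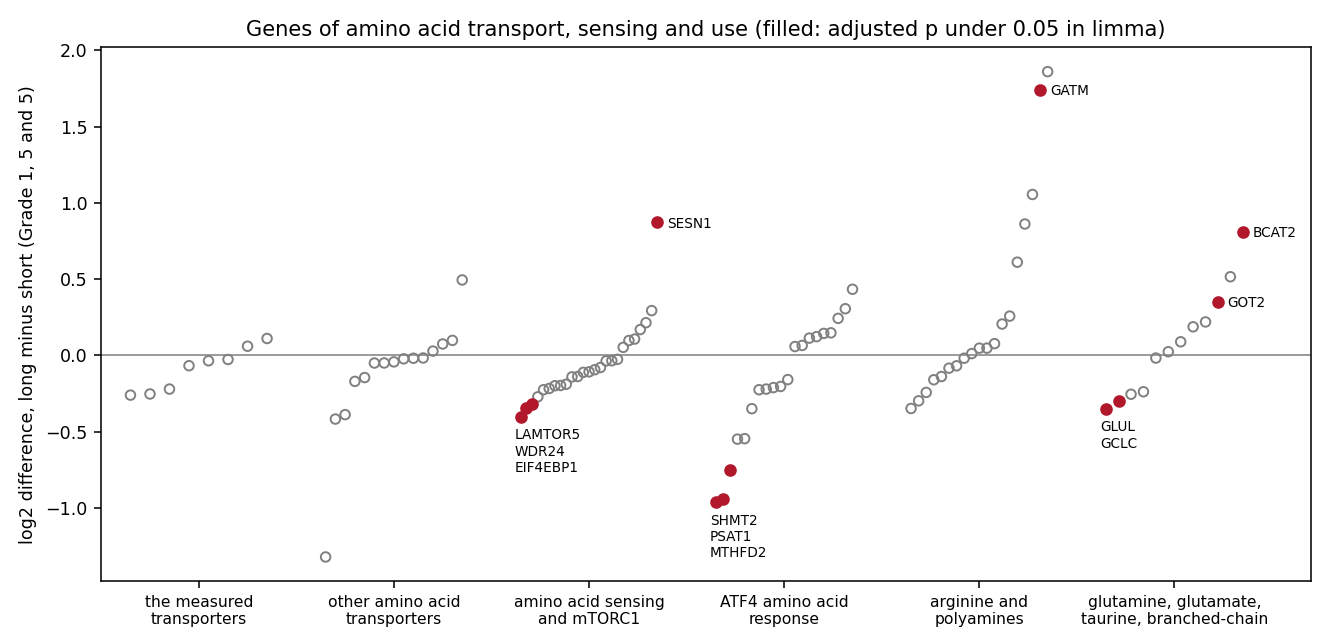
Log2 differences between long and short Grade 1 conceptuses (y axis, 5 and 5) for the measured transporters and the measured genes of 5 related lists (x axis), 1 point per gene in order of its difference; filled points passed at an adjusted p under 0.05 in limma. The 8 transporters lie between -0.26 and 0.11, whereas the called genes reach -0.96 (MTHFD2) and 1.74 (GATM).

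Of the 12 called genes in these lists, SESN1, SHMT2, PSAT1, GATM, GOT2 and BCAT2 passed in each of the 10 fits with 1 conceptus left out. LAMTOR5, WDR24, GLUL, EIF4EBP1, MTHFD2 and GCLC lost the call in 5, 6, 7, 9, 9 and 9 of these fits. Their highest adjusted p was 0.0676 for LAMTOR5 and 0.0786 for GLUL without long replicate 2, 0.0703 for WDR24 and 0.0772 for GCLC without long replicate 5, 0.0996 for EIF4EBP1 without short replicate 4 and 0.0931 for MTHFD2 without long replicate 1. With the conceptus of disagreeing labels counted as long, 11 of the 12 lost the call, and with title prefix as a fixed block 11 of 12 did. BCAT2 kept it in both. The BCAT2 probe set that passed was dim, with means of 4.88 in long and 4.07 in short conceptuses, below the median of every array.

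Markers of cell types were set beside the length groups. The long and short ranges of the list means overlapped only in part in the 4 lists given here. The epiblast list (3 of 5 genes measured) averaged 5.56 to 5.99 in long and 5.94 to 6.44 in short conceptuses, the hypoblast list (8 of 10) 7.54 to 7.69 and 7.66 to 7.92, the trophectoderm list (7 of 12) 11.44 to 11.52 and 11.30 to 11.48, and the blood and immune list (9 of 10) 4.51 to 4.74 and 4.64 to 4.96. For length, 1 of 3 epiblast genes was called (DNMT3B, lower in long), 2 of 8 hypoblast genes (APOA1 higher, PDGFRA lower), 1 of 7 trophectoderm genes (TFAP2A, higher), 1 of 9 blood and immune genes (CD8A, lower), and 0 endometrial or erythroid genes, where 9.5% of named genes were. All 3 measured epiblast genes averaged lower in long conceptuses with an unadjusted p under 0.05 in limma. Of all probe sets, 22% had such a p in either direction. Many of these markers were dim. Means lay below the median of all values for 2 of 3 epiblast, 3 of 8 hypoblast and 7 of 9 blood and immune genes. PTPRC averaged 3.05 and SOX2 4.48, against 6.46 for CD8A and 7.71 for POU5F1. Whether the list means follow the amount of each cell type was not tested. The part of these markers in the differences above was not tested either.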

How the data were processed

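RNA of 14 whole conceptuses was measured on Affymetrix bovine arrays, from 250 ng of total RNA each per the labels' protocols. The authors deposited log2 values. The submitters' processing notes name RMA and Affymetrix Expression Console, without versions. Because RMA makes array distributions alike, changes common to most genes are not visible. The 112 control probe sets were left out, leaving 24016; 13292 had 1 gene symbol, 86 several and 10638 none, and the 9155 named genes were represented by their probe set with the highest mean. By Entrez number, 13263 were found in RefSeq's ARS-UCD2.0 gene list.

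Groups came from the labels. limma 3.58.1 in R 4.3.3 (lmFit, eBayes, two-sided, Benjamini-Hochberg over 24016 probe sets, threshold 0.05) compared long with short (5 and 5), Grade 3 with Grade 1 (3 and 11; the design text uses 4 unnamed Grade 1 conceptuses) and, in a fit of 3 groups, Grade 3 with each length group. The fit was tested on simulated data. The sex comparison, with grade as a covariate, was added after the values were seen. Dam and recipient are not given per conceptus, so p-values reflect only how far these 14 samples scatter, taken as independent. From each related list, the genes named were those that passed for length, the next 3 by p, and 1 by p for grade; likeness was sought for the 3 transporters of largest SD. The members and lists were chosen with earlier results of these data known. Alternatives were array centring, quantile normalisation, a filter on dim probe sets, sex and title prefix as terms, another eBayes prior, the length label in dispute, and each conceptus left out. Precision is limited by the number of arrays: the median half-width of the transporters' 95% intervals was 0.23 for length and 0.26 for grade.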

Additional observations from a re-analysis of the deposited data

How the results depend on the processing

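The number of probe sets called for length was 1577 as reported, 2403 with sex as a covariate, 492 with the conceptus of disagreeing labels counted as long, 112 with prefix as a fixed block, and 460 to 1697 with 1 conceptus left out. Of the transporters, 0 were called for length as reported, 1 with sex as a covariate (SLC7A5), 1 without the conceptus of disagreeing labels (SLC6A6), and 0 to 1 with 1 left out. With 1 left out, 0 to 2 probe sets passed for grade, 0 to 1 for Grade 3 against long and 0 to 4 against short. Against long, 49 passed with sex as a covariate; against short, 4 without the conceptus of disagreeing labels. The fit without the conceptus of disagreeing labels is the fit without short replicate 1, so it is also among those with 1 left out. The cause of these changes in number was not tested.

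Differences that were not called turned in sign as follows. SLC1A1 stood at 0.11, 0.034 and 0.049 for length with the disputed conceptus counted as long, left out, or prefix as a fixed block. It stood at 0.015 for grade after quantile normalisation, at -0.052 and -0.064 against long with sex as a covariate or the disputed conceptus counted as long, and at 0.049 against short with it counted as long or left out. With sex as a covariate, SLC38A2 stood at -0.14 for grade, -0.25 against long and -0.049 against short, and its dimmer probe set at -0.077 against short.

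With 1 conceptus left out, values for length ranged from -0.14 to 0.034 (SLC1A1), -0.090 to 0.069 (SLC1A4) and -0.10 to 0.22 (SLC38A2). For grade they ranged from -0.065 to 0.038 (SLC1A1), -0.086 to 0.17 (SLC1A4), -0.0046 to 0.087 (SLC3A2), -0.095 to 0.38 (SLC38A2), -0.29 to 0.18 (its dimmer probe set) and -0.033 to 0.11 (SLC6A6). Against long, they ranged from -0.043 to 0.065 (SLC1A1), -0.080 to 0.18 (SLC1A4), -0.038 to 0.080 (SLC7A1), -0.082 to 0.40 (SLC38A2) and -0.43 to 0.045 (its dimmer probe set). Against short, they ranged from -0.12 to 0.049 (SLC1A1), -0.11 to 0.15 (SLC1A4), -0.0079 to 0.084 (SLC3A2), -0.022 to 0.46 (SLC38A2), -0.13 to 0.34 (its dimmer probe set) and -0.26 to 0.0080 (SLC6A6). Replicate numbers follow accession order and pair no conceptuses. The title prefix, which holds both lengths in 2 of 7 cases, was fitted as a block instead, with 112 probe sets called for length as a fixed block and 1653 as a random one. The number of arrays limits precision.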
